A study of Homo sapiens with 6 samples.

Results

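Butyrophilins are described here in LoVo, a long-established colorectal cancer cell line of human origin, after knockdown of the splicing factor SRSF11. The 6 genes BTN1A1, BTN2A1, BTN2A2, BTN3A1, BTN3A2 and BTN3A3 were taken by name from the 58735 genes of the count table, and all 6 passed the filter on low counts, as did 15801 genes in all. They were chosen by the contrast between the conditions itself, because BTN1A1 was far higher in si‐SRSF11 than in si‐NC beside its chromosome 6 neighbours, so their changes are given as a description with no test. LoVo cells transfected with a control siRNA (si‐NC, 3 libraries) were compared with LoVo cells transfected with an siRNA against SRSF11 (si‐SRSF11, 3 libraries), and each library holds poly(A)-selected RNA. The labels do not name which of the study's SRSF11 siRNAs was used, and a transfected culture mixes cells that took up different amounts of siRNA. Nothing in the labels says whether libraries of a condition came from separate cultures, so p-values measure only the spread between these libraries. In such bulk RNA, more cells with a transcript and more transcript per cell cannot be told apart.

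Butyrophilins are membrane proteins of the immunoglobulin superfamily, related to the B7 ligands of T cells. Their outer part carries immunoglobulin-like domains, and most of them end inside the cell in a B30.2 domain. BTN1A1, the founding member, is a major protein of the milk fat globule membrane, made by the lactating mammary gland. BTN2A1 and BTN3A1 act together on tumour cells in the recognition of phosphoantigens by Vγ9Vδ2 T cells, where the B30.2 domain of BTN3A1 binds the phosphoantigen. BTN3A2 and BTN3A3 are close relatives of BTN3A1, BTN3A2 lacks the B30.2 domain, and BTN2A2 is known as a brake on T cell activation.

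The library totals ranged from 14369525 to 16685719 counts. The knockdown left SRSF11 at 789, 789 and 807 counts, against 1271, 1281 and 1363 with the control siRNA (log2 fold change -0.81, SE 0.054, edgeR quasi-likelihood adjusted p = 6.1e-10). The conditions did not overlap for SRSF11 (two-sided exact test by permutation of the labels, p = 0.10, which 3 libraries a side cannot go below). Of 10 colorectal epithelial markers, all were tested and 2 were called, both higher (CDX2, log2 fold change 0.40, and CDX1, 0.31). The markers' summed level was 5385 to 5730 CPM (counts scaled to a common library size) in si‐NC and 5461 to 5832 in si‐SRSF11. Of 13 immune cell markers, 3 were tested and 0 were called by edgeR. The leukocyte marker PTPRC, CD3D, MS4A1 and the γδ receptor genes TRDC, TRGC1 and TRGC2 had 0 counts in all 6 libraries. CD8A had 161 to 168 counts in si‐NC and 164 to 182 in si‐SRSF11. CD14 had 46, 39 and 49 against 55, 60 and 67 (log2 fold change 0.35, edgeR's adjusted p = 0.22), and LYZ, too low to test, 7, 4 and 2 against 13, 19 and 7. The summed immune level was 14.9 to 16.8 CPM in si‐NC and 16.4 to 17.7 CPM in si‐SRSF11.

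The 6 genes lie in one cluster of 145 kb on the short arm of chromosome 6 (GRCh38, plus strand), in the order BTN3A2, BTN2A2, BTN3A1, BTN3A3, BTN2A1 and BTN1A1. BTN1A1 (ENSG00000124557, 26501221 to 26510422) stands 24.6 kb from BTN2A1 (ENSG00000112763, 26457904 to 26476621). BTN3A3 (ENSG00000111801) spans 26440472 to 26453415 and BTN3A1 (ENSG00000026950) spans 26402237 to 26415216. BTN2A2 (ENSG00000124508) spans 26383096 to 26394874 and BTN3A2 (ENSG00000186470) spans 26365159 to 26378320. The exons of these 6 genes share 0 bases with any other annotated gene on either strand.

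Promoters are shown for the genes with the largest and the next largest fold change, BTN1A1 and BTN3A2, and for BTN3A3, whose promoter is the closest relative of that of BTN3A2 among those compared. RefSeq promoter entries (GRCh38.p14, plus strand, 250 bases before to 50 bases after the start) were found for 4 of 6 members, BTN1A1, BTN2A1, BTN3A2 and BTN3A3, and not for BTN2A2 and BTN3A1. Capitals mark the letters found for the TATA box (TATAAA), the CCAAT box (CCAAT), the interferon element core (GAAANNGAAA), the STAT element (TTCNNNGAA), the E-box (CACGTG) or the GC box (GGGCGG), searched on both strands.
BTN1A1, chr6:26500053-26500352: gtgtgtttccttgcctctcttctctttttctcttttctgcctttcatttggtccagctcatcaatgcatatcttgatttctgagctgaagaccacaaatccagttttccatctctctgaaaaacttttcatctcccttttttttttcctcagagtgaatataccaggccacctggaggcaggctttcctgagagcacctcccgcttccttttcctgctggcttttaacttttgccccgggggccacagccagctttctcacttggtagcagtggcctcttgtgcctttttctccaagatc
BTN3A2, first start site, chr6:26364948-26365247: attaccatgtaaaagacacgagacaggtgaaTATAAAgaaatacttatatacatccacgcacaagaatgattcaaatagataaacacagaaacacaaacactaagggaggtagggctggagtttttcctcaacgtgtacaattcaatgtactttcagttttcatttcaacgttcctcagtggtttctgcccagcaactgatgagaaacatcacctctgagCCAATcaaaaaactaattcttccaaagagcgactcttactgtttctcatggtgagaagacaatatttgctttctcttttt
BTN3A3, chr6:26440254-26440553: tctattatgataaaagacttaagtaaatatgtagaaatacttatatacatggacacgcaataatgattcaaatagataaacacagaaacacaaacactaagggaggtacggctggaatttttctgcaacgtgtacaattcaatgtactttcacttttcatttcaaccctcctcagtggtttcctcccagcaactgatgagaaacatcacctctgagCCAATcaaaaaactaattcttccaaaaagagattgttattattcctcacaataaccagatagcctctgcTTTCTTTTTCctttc
The 300 bases of BTN1A1 hold none of the 6 motifs, and 46.7% of them are G or C, against a median of 58.7% over 35116 promoters. The other members' windows hold less G and C still. They have 37.0% and 41.3% at the first and second start sites of BTN3A2, 34.7% for BTN3A3 and 45.7% for BTN2A1. The window of the second BTN3A2 start site, not printed, also holds none of the motifs. The first BTN3A2 start site has TATAAA at -219 and CCAAT at -30 from the start, and BTN3A3 has CCAAT at -34. At the 3′ end of the BTN3A3 window lies TTTCTTTTTC, the reverse strand of the interferon element core GAAANNGAAA. TATAAA occurred in 11.5% of all promoters, CCAAT in 34.6%, GAAANNGAAA in 3.57%, TTCNNNGAA in 7.66%, CACGTG in 7.26% and GGGCGG in 45.0%. The BTN3A2 and BTN3A3 windows are 85.1% identical over 295 aligned bases, while that of BTN1A1 is 47.4% to 59.8% identical to the other members' windows. The RefSeq start of BTN1A1 lies 918 bases before the start of its gene model in the count table, so the printed window does not end at the first base that was counted.

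BTN1A1 was the member furthest from its si‐NC level. Its reads numbered 15, 7 and 12 in the 3 si‐NC libraries and 92, 62 and 77 in the 3 si‐SRSF11 libraries. In CPM these were 1.03, 0.461 and 0.770 in si‐NC and 5.88, 3.81 and 4.72 in si‐SRSF11. All 3 si‐SRSF11 libraries lay above all 3 si‐NC libraries, and the lowest si‐SRSF11 library had several times the counts of the highest si‐NC library. The mean went from 0.755 ± 0.287 CPM (SD, n = 3) to 4.81 ± 1.04 CPM (SD, n = 3), a log2 fold change of 2.66 (standard error 0.28), or 6.33-fold. By log2 fold change BTN1A1 ranked 3 of 15801 tested genes.

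The low level sets how closely BTN1A1 can be read. The 34 counts of the si‐NC libraries together stand against 231 in si‐SRSF11. The fitted variation of BTN1A1 between libraries, with counting error left out, was 14.3%, against 5.34% for genes in common. The spread seen between its libraries is larger, because counting error adds to it. Of the 3 si‐NC libraries, 2 reached 10 counts, so it passed the filter only through si‐SRSF11. When libraries were left out singly, the BTN1A1 log2 fold change ranged from 2.41 to 2.94. By mean log2 CPM over all 6 libraries, the higher si‐SRSF11 ones included, its level was at percentile 17.5 of the tested genes.

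BTN2A1, the partner of BTN3A1 that binds the Vγ9Vδ2 receptor, was the most abundant member. It had 36.5, 38.6 and 33.9 CPM in si‐NC and 39.4, 41.6 and 39.4 CPM in si‐SRSF11. The 3 si‐SRSF11 libraries were all above the 3 si‐NC libraries, though the gap between the nearest libraries was small beside the spread within si‐NC. Its mean went from 36.3 ± 2.37 to 40.1 ± 1.26 CPM (SD, n = 3), for a log2 fold change of 0.14 (standard error 0.069). BTN2A2, its nearest relative in sequence, had 20.3, 18.9 and 20.7 CPM in si‐NC and 19.1, 18.5 and 17.8 CPM in si‐SRSF11. The groups overlapped for BTN2A2, whose log2 fold change was -0.12 (standard error 0.089).

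BTN3A1, the phosphoantigen sensor, had 9.58, 11.9 and 8.28 CPM in si‐NC and 9.02, 12.6 and 10.2 CPM in si‐SRSF11. The groups overlapped over most of their range, replicate 2 was the highest library of each, and the log2 fold change was 0.10 (standard error 0.14). Without si‐NC replicate 3 it was -0.02 and without si‐SRSF11 replicate 2 it was -0.04, so its direction was not fixed by these libraries.

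BTN3A2, the member with no B30.2 domain, had 94, 128 and 138 counts in si‐NC and 194, 195 and 205 in si‐SRSF11. In CPM it stood at 6.48, 8.42 and 8.86 in si‐NC and at 12.4, 12.0 and 12.6 in si‐SRSF11. The 3 si‐SRSF11 libraries lay close together and above all si‐NC libraries, of which replicate 1 was the lowest. The mean went from 7.92 ± 1.27 to 12.3 ± 0.295 CPM (SD, n = 3), a log2 fold change of 0.63 (standard error 0.13), or 1.55-fold.

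BTN3A3, also a low gene, had 57, 56 and 59 counts in si‐NC and 53, 54 and 37 in si‐SRSF11. In CPM these were 3.93, 3.68 and 3.79 in si‐NC and 3.39, 3.32 and 2.27 in si‐SRSF11. All si‐SRSF11 libraries lay below all si‐NC libraries, and si‐SRSF11 replicate 3 stood furthest below. The log2 fold change was -0.34 (standard error 0.21), and -0.18 without that library.

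**Figure D1:**
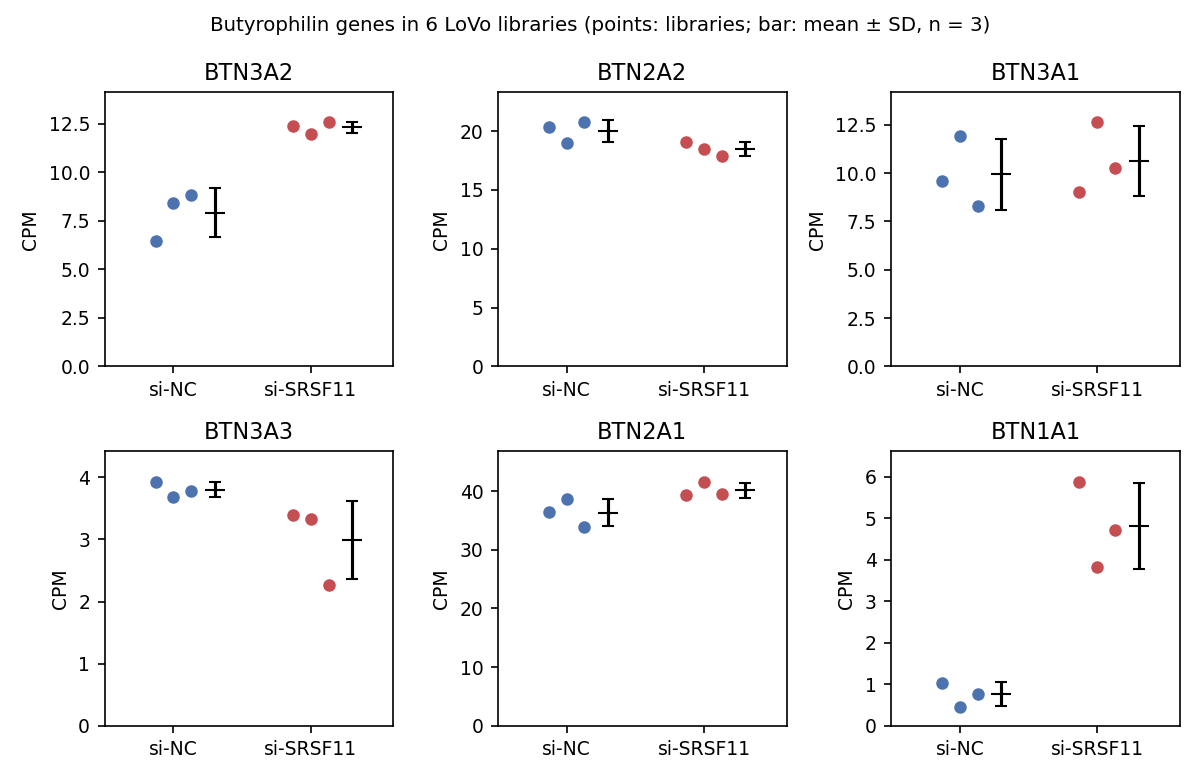
CPM of each butyrophilin gene (vertical axis, from 0, with its own scale per gene) in the 3 si‐NC and 3 si‐SRSF11 libraries, as points, with the mean and SD as the bar to their right. BTN1A1 goes from 0.461 to 1.03 CPM in si‐NC to 3.81 to 5.88 CPM in si‐SRSF11 and BTN3A2 is also apart, while the points of BTN2A2 and BTN3A1 overlap.

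Of the 6 members, 2 had an adjusted p under 0.05, BTN1A1 and BTN3A2, both higher, against 24.6% of all tested genes called (13.2% higher and 11.4% lower). Groups that did not overlap were seen in 3 members with si‐SRSF11 higher (BTN1A1, BTN2A1 and BTN3A2), against 20.0% of all tested genes. In 1 member, BTN3A3, si‐SRSF11 lay lower without overlap, as in 18.9% of all tested genes. Because the members were selected on this contrast, nothing is read from these counts. The median log2 fold change of the 6 members was 0.12, against 0.0015 over all tested genes.

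Per kilobase of gene model, the members formed an order in si‐NC. The gene model joins the exons of all annotated transcripts, so it can be longer than the transcript expressed. It has 7042 bases for BTN3A2 and 5547 for BTN3A1, whose reference transcripts have 3017 and 3434. For BTN1A1 the model and the reference transcript both have 2895 bases. Genes with long models are thus set lower beside BTN1A1, and the order holds for this measure only. BTN2A1 came first at 9.59 ± 0.625 CPM per kb (SD, n = 3), followed by BTN2A2 at 3.13 ± 0.147 and BTN3A1 at 1.79 ± 0.331. BTN3A2 followed at 1.12 ± 0.180, BTN3A3 at 0.672 ± 0.0218 and BTN1A1 last at 0.261 ± 0.0992 CPM per kb. Neighbours in this order did not overlap between libraries. In si‐SRSF11, BTN1A1 stood at 1.66 ± 0.358 CPM per kb (SD, n = 3), above BTN3A3 at 0.529 ± 0.111 and beside BTN3A2 at 1.75 ± 0.0419. There BTN3A1 at 1.92 ± 0.330, BTN3A2 and BTN1A1 followed each other with overlapping libraries. BTN2A1 at 10.6 ± 0.333 and BTN2A2 at 2.89 ± 0.0946 kept the first places without overlap.

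**Figure D2:**
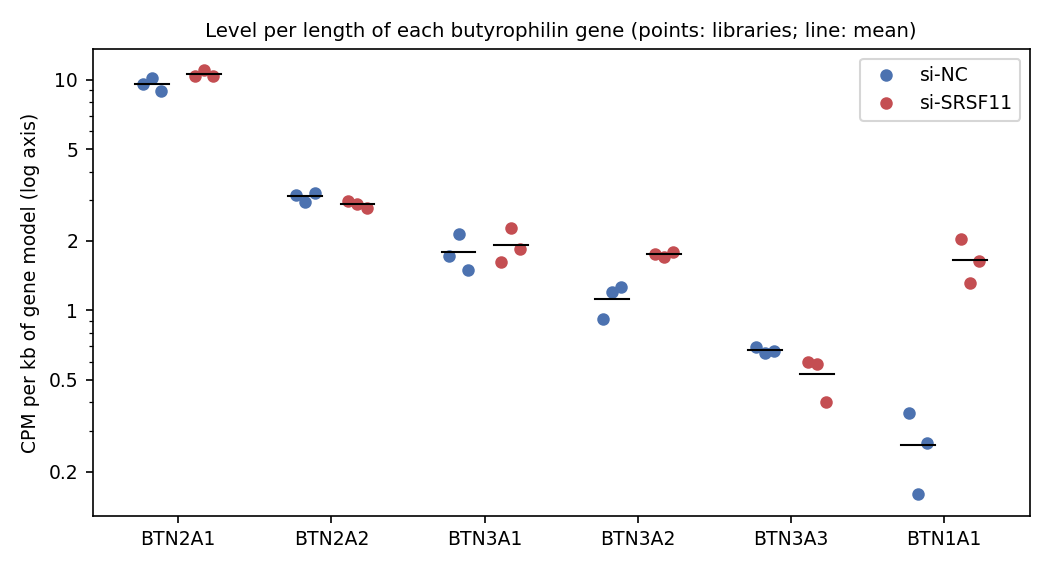
Level of each butyrophilin gene per kb of gene model (CPM per kb, log axis) in each library, with si‐NC in blue, si‐SRSF11 in red and the mean as a line. On this measure BTN1A1 is the lowest gene in si‐NC, at a mean of 0.261. At a mean of 1.66 in si‐SRSF11, its libraries overlap those of BTN3A1 and BTN3A2, whose gene models are longer. In CPM, not divided by length, the si‐SRSF11 means are 4.81 for BTN1A1, 10.6 for BTN3A1 and 12.3 for BTN3A2.

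In the mix of butyrophilin transcripts, BTN1A1 stayed a minor part. It held 0.966% ± 0.385 (SD, n = 3) of the 6 members' counts in si‐NC and 5.39% ± 1.22 in si‐SRSF11. BTN2A1 held 46.1% ± 1.48 and 44.9% ± 0.630, the largest share under both conditions. BTN3A2 went from 10.1% ± 1.65 to 13.8% ± 0.695, and BTN2A2 from 25.5% ± 2.12 to 20.7% ± 0.629. Per kilobase of gene model, BTN1A1 reached 1.56% to 3.71% of the BTN2A1 level in si‐NC libraries and 12.0% to 19.5% in si‐SRSF11 libraries. The 6 members summed to 78.7 ± 2.96 CPM in si‐NC and 89.4 ± 2.40 CPM in si‐SRSF11 (SD, n = 3), and without BTN1A1 to 78.0 ± 3.18 and 84.6 ± 3.06 CPM.

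The members are related in sequence, and reads could be shared between near-identical stretches. The reference transcript of BTN1A1 has 7 exons and shares none of its 2796 windows of 100 nt with another gene. BTN2A1 shares 0.957% of its windows, all with BTN2A2. BTN3A1 shares 5.16%, BTN3A3 7.37% and BTN3A2 8.84%, with each other, and how the counting treated such reads is not given in the sources used here. The change of BTN3A2 beside those of BTN3A1 and BTN3A3 is therefore uncertain in part, while no such stretch touches BTN1A1. The longest coding run identical in all 3 BTN3A genes, at bases 205 to 401 of the coding sequence, is shown because reads inside it cannot be assigned to one gene.
Run shared by BTN3A1, BTN3A2 and BTN3A3, 197 bases: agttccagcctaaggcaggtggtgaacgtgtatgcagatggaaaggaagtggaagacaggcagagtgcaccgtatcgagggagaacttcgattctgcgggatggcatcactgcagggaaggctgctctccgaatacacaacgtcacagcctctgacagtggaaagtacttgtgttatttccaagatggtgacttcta
The 17 bases shown in capitals next occur in the coding sequence of 5 of 6 members, the 5 whose protein ends in a B30.2 domain, and not in that of BTN3A2. The lines give 40 bases of coding sequence each.
BTN1A1: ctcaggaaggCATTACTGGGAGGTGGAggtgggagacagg
BTN2A1: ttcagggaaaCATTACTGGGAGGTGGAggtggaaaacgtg
BTN2A2: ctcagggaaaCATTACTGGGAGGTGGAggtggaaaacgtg
BTN3A1: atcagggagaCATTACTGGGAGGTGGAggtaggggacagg
BTN3A3: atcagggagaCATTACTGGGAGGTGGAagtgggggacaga
Over the aligned bases of the coding sequences, with gaps left out, BTN1A1 was 64.3% to 65.3% identical to the other members. BTN2A1 and BTN2A2 were 91.5% identical, and the BTN3A genes 90.0% to 95.4%. BTN3A2 and BTN3A3, the closest pair by this measure, had log2 fold changes of 0.63 and -0.34. Their alignment covers 1002 of the 1752 coding bases of BTN3A3.

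**Figure D3:**
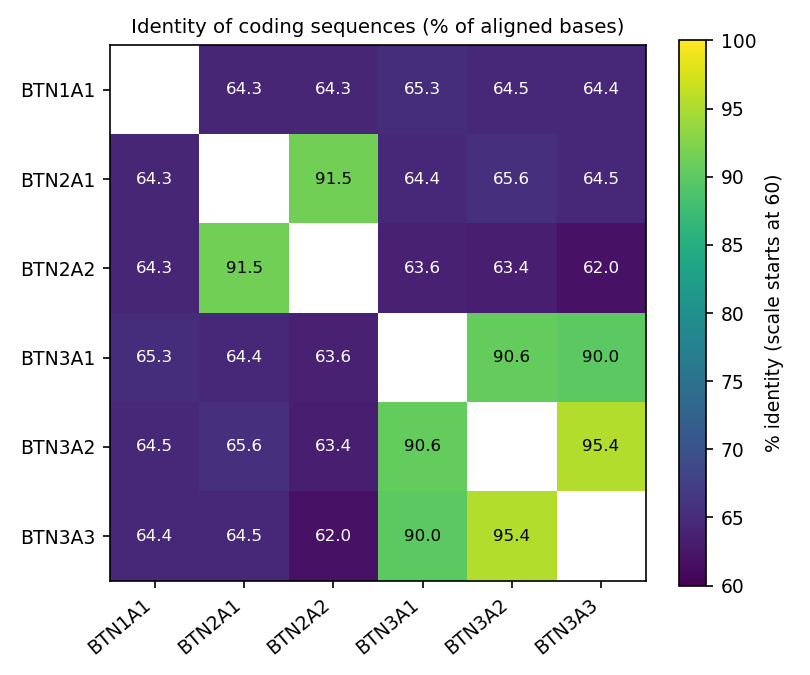
Percent of aligned bases that are identical between the coding sequences of each pair of butyrophilin genes, as a colour scale from 60 to 100 with the value printed. The BTN2A pair and the BTN3A trio stand out as near copies, at 90.0% or more, while BTN1A1 lies at 64.3% to 65.3% from every other member.

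The study inferred GACTCA and GACCCA as sequences that SRSF11 prefers, so these letters were counted in the reference transcripts. BTN1A1 holds 4 of them, 1.38 per kb of transcript, against 0.504 per kb over the tested genes. The other members hold 1 (BTN2A1), 2 (BTN3A2) or 3 (BTN2A2, BTN3A1 and BTN3A3). Per kb that is 0.342 for BTN2A1, 0.663 for BTN3A2, 0.836 for BTN2A2, 0.874 for BTN3A1 and 0.999 for BTN3A3. All members but BTN2A1 thus lie above the value over the tested genes. Of 2988 tested transcripts of 2400 to 3400 bases, 75.5% hold at least 1 and 9.44% hold 4 or more. The sites in BTN1A1 (GRCh38, plus strand) are shown with the hexamer in capitals.
Exon 1, 5′ UTR, chr6:26501247-26501252: agctcctgagggGACTCAcatcagttatct
Exon 4, coding, chr6:26506797-26506802: tatacaacgaaaGACCCAgagagaggagga
Exon 7, coding, chr6:26508515-26508520: gatgtgactctgGACCCAgacacagctcat
Exon 7, 3′ UTR, chr6:26509384-26509389: ggatggaggggtGACTCAaactgcttctag
A match of letters is no binding site, and gene counts say nothing about the splicing of these exons. Whether these hexamers bear on the change of any member was not tested.

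The genes around the cluster were read beside the members, though few could be tested. Within 250 kb of the members lie 42 other genes, of which 30 had under 10 counts in every library. Of these 42, 9 were tested and 0 were called by edgeR or by DESeq2, beside 24.6% of all tested genes called by edgeR. So few tested genes cannot show how far along the chromosome a change reached. With an unadjusted p under 0.05 there was 1, the linker histone gene HIST1H1E, at 1.92 ± 0.918 CPM in si‐NC and 0.992 ± 0.522 in si‐SRSF11 (SD, n = 3), log2 fold change -0.94 (standard error 0.38, edgeR's adjusted p = 0.075). It was called in 2 of the 6 fits that left out a library, those without si‐NC replicate 3 or si‐SRSF11 replicate 3. Of the neighbours, 25 have names of the HIST1 histone cluster, pseudogenes included, and 5 of these were tested. The tested neighbours ran from -0.94 to 0.21 with a median of 0.03.

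On the far side of BTN1A1 the next tested gene is HMGN4, which codes for a nucleosome-binding protein. HMGN4 was at 81.3 ± 3.20 CPM in si‐NC and 83.1 ± 3.37 in si‐SRSF11 (SD, n = 3), a log2 fold change of 0.03 (standard error 0.054, edgeR's adjusted p = 0.73). HCG11, 11.3 kb beyond BTN1A1, had 2 counts in 1 si‐SRSF11 library and 0 in the other 5, so it was not tested. On the near side, BTN2A1 is the first tested gene. The pseudogene BTN2A3P, between BTN3A1 and BTN3A3, had 151, 165 and 172 counts in si‐NC and 184, 198 and 146 in si‐SRSF11, with overlapping groups and a log2 fold change of 0.02 (edgeR's adjusted p = 0.91).

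**Figure D4:**
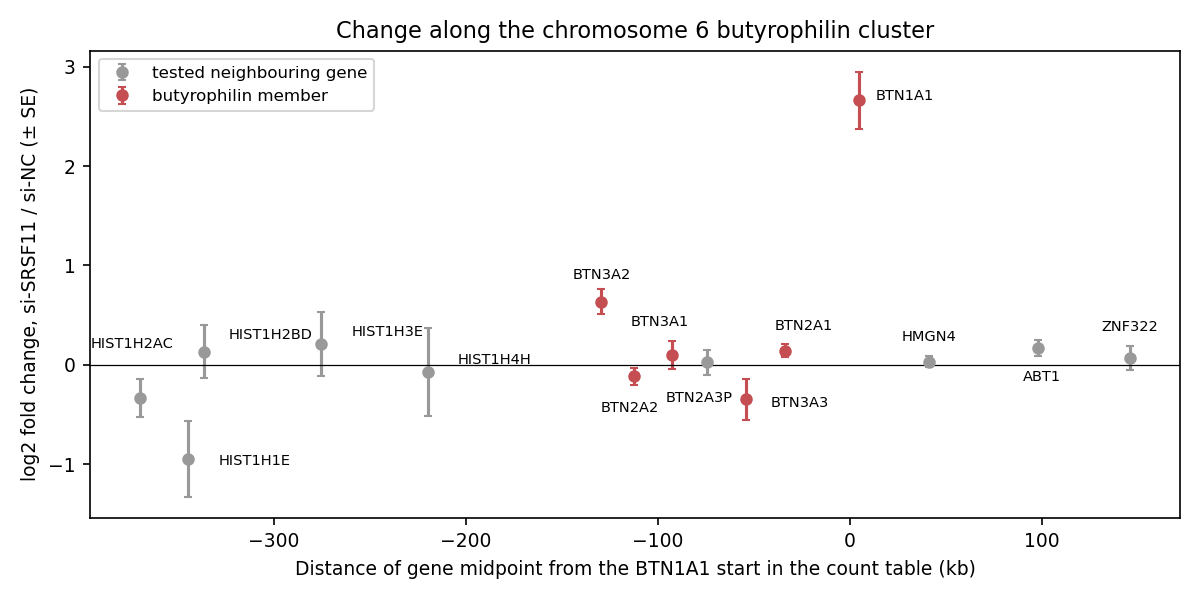
Log2 fold change of si‐SRSF11 against si‐NC (vertical axis, bars are the standard error) against the distance of each gene's midpoint from the BTN1A1 start in the count table, in kb. BTN1A1 stands at 2.66 and BTN3A2 at 0.63, while the tested neighbours, in grey, lie between -0.94 and 0.21.

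The 5 protein-coding genes whose log2 CPM followed BTN1A1 most closely over the 6 libraries were UNG, ZNF485, RNPS1, SECTM1 and POLD1, with Pearson's r of 0.996 to 0.998. All 6 points share the split between the conditions, and 1075 of 12769 genes had an r over 0.9, so this is a description of rank only. UNG, which removes uracil from DNA, went from 36.7 ± 2.38 to 54.3 ± 2.39 CPM (SD, n = 3), a log2 fold change of 0.57. RNPS1, a splicing regulator, had 0.22 and POLD1, the catalytic subunit of DNA polymerase delta, had 0.28. Changes in these genes were far smaller than the 2.66 of BTN1A1. Among the members, r with BTN1A1 was 0.83 for BTN3A2 and 0.03 for BTN3A1.

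Of 17 butyrophilin-like and B7 genes, 8 were tested, BTN2A3P of the cluster among them. Of the 8, 2 were called (25%, beside 24.6% of all tested genes), both higher, with a median log2 fold change of 0.06, beside 0.0015 over all tested genes. CD276, a B7 ligand on many tumours, went from 192 ± 1.92 to 231 ± 7.32 CPM (SD, n = 3; log2 fold change 0.27, edgeR's adjusted p = 0.0002). HHLA2, another B7 relative, had 5, 7 and 4 counts in si‐NC and 13, 23 and 23 in si‐SRSF11. Its log2 fold change was 1.77 (standard error 0.44, edgeR's adjusted p = 0.0046), and it passed the filter through si‐SRSF11 only. Without any 1 of the si‐SRSF11 libraries HHLA2 was no longer tested, which left 7 tested genes and 1 call in the list. Those fits therefore say nothing about how stable its call is. With DESeq2 the call of HHLA2 was lost. CD274, which codes for PD-L1, had 24, 18 and 19 counts in si‐NC and 18, 17 and 16 in si‐SRSF11 (log2 fold change -0.35, edgeR's adjusted p = 0.47). BTNL3 and BTNL8, the intestinal butyrophilin-like pair, and BTNL2, BTNL9 and BTNL10 were too low to test.

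Of 27 genes that code for a B30.2 domain, 23 were tested and 7 were called (30.4%, beside 24.6% of all tested genes), 3 higher and 4 lower, with a median of -0.01. TRIM25, a ubiquitin ligase of antiviral RNA sensing, fell by 0.38 on the log2 scale (edgeR's adjusted p = 3.3e-06), as did TRIM16 by 0.28 and TRIM41 by 0.27. TRIM14 rose by 0.40 and TRIM27 by 0.19.

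The mevalonate pathway makes isopentenyl pyrophosphate, the phosphoantigen that BTN3A1 binds in tumour cells. Of its 10 genes, all were tested and 7 were called (70.0%), each higher, as were 13.2% of all tested genes, with a median log2 fold change of 0.28. IDI1, which isomerises isopentenyl pyrophosphate, rose by 0.48 (edgeR's adjusted p = 1.4e-05) and MVK, mevalonate kinase, by 0.37. FDPS, the enzyme that consumes isopentenyl pyrophosphate, rose by 0.25 and FDFT1, the first enzyme of the sterol branch, by 0.24. GGPS1 (-0.15), PMVK (0.09) and HMGCS1 (-0.03) did not pass. BTN3A1, the sensor of this metabolite, had 0.10 with overlapping groups.

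Of 18 genes for γδ T cell recognition of tumour cells, 17 were tested and 5 were called (29.4%, beside 24.6% of all tested genes), 2 higher and 3 lower, with a median of -0.08. EPHA2 fell by 0.25 and PPL, whose product periplakin binds BTN3A1, fell by 0.25 (edgeR's adjusted p = 0.0021). PVR, a ligand of DNAM-1, fell by 0.16, while NECTIN2, a ligand of the same receptor, rose by 0.19 and CD58 by 0.46 (adjusted p = 0.048). The call of CD58 was lost in 9 of 14 alternatives of scaling, filter, test or libraries, and that of PVR in 6. The list had 3 calls without si‐NC replicate 3 and 3 without si‐SRSF11 replicate 2. RHOB, a small GTPase tied to BTN3A1, had -0.08 (adjusted p = 0.20).

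Of 23 genes of MHC class I and its regulators, 22 were tested and 5 were called (22.7%, beside 24.6% of all tested genes), 2 higher and 3 lower, with a median of -0.03. B2M, the light chain of MHC class I, fell by 0.23 and HLA-B by 0.21, while HLA-E rose by 0.16 (edgeR's adjusted p = 0.013). IRF9, a subunit of the interferon-activated factor ISGF3, fell by 0.77 (adjusted p = 0.049). The call of IRF9 was lost in 5 of the 14 alternatives, that of HLA-B in 4 and that of HLA-E in 1. The transactivator NLRC5 had 0.10 (adjusted p = 0.41). There were 2 calls in this list without si‐NC replicate 1, 1 without si‐NC replicate 2 and 3 without si‐SRSF11 replicate 2.

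BTN1A1 is best known from milk, so genes of the milk fat globule and of mammary secretion were read beside it. Of 18 genes, 7 were tested and 2 were called (28.6%), both lower, as were 11.4% of all tested genes, with a median of -0.18. STAT5B, a mediator of prolactin and growth hormone signals, fell by 0.26 (edgeR's adjusted p = 0.0014). MFGE8, a secreted protein of the milk fat globule, fell by 0.18 (adjusted p = 0.005). XDH, whose product binds BTN1A1 in the milk fat globule membrane, had 109, 91 and 131 counts in si‐NC and 85, 99 and 91 in si‐SRSF11 (log2 fold change -0.36, adjusted p = 0.095). The casein genes CSN1S1, CSN2 and CSN3 had 0 counts in all 6 libraries. PLIN2, which coats lipid droplets, had 0.13 (adjusted p = 0.13) and FABP3, a fatty acid carrier, 0.11 (adjusted p = 0.32), each without overlap between the groups. The prolactin receptor gene PRLR, too low to test, had 2, 2 and 1 counts in si‐NC and 6, 7 and 7 in si‐SRSF11. BTN1A1 stood 6.33-fold above its si‐NC level beside these.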

How the data were processed

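For each condition, si‐NC and si‐SRSF11, 3 libraries of LoVo RNA were sequenced as 150 bp paired-end reads, with a kit that does not mark strand. The authors deposited raw counts per gene with no normalization, and per the submitters' processing notes the build is hg38. The aligner and the counting program are not given in the sources used here. Start, end and length of the 6 members in the table equal those of GENCODE 29. Genes without 10 counts in at least 3 libraries were left out, among them 26909 with 0 counts throughout. The quasi-likelihood test of edgeR 4.0.16 (glmQLFit, glmQLFTest, in R 4.3.3) was run on the other 15801 after TMM scaling, with condition as the only term, and p was adjusted over them by Benjamini-Hochberg. CPM were computed from these counts and library sizes, summed over the tested genes and multiplied by the TMM factors. These factors were 1.006 to 1.019 in si‐NC and 0.979 to 0.999 in si‐SRSF11. Levels per kb came from dividing CPM by the table's gene length.

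Pairs of libraries within a condition differed by more than counting error, with a chi-square per degree of freedom of 2.11 to 5.62. All 6 were counted as samples, though this excess cannot show whether they came from separate cultures. Counts of 15 or fewer carry large counting error. Coding sequences and promoters were aligned with Biopython (version 1.88). The fit was tested on simulated data. The alternatives were DESeq2 (version 1.42.0), other scalings, other filters, a replicate block, and leaving out single libraries.

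The members and the lists were chosen with earlier results of these data known. Named genes are the members, SRSF11, up to 5 called genes per list with the smallest adjusted p, the tested neighbours of BTN1A1, the 5 genes most like it, and CD274. Some genes that the rule names are not reported here. Others were named for their known role after their values were seen (HIST1H1E, HCG11, BTN2A3P, the BTNL genes, GGPS1, PMVK, HMGCS1, RHOB, NLRC5, CD8A, CD14, LYZ, PLIN2, FABP3, PRLR, XDH and the caseins). Splicing was not analysed here, since the table counts whole genes.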

Additional observations from a re-analysis of the deposited data

How the results depend on the processing

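The 14 alternatives are described by their ranges, and nothing is read from the members' values, which chose them. The log2 fold change of SRSF11 was -0.84 to -0.79. For BTN1A1 the value was 2.63 to 2.67 under other scalings, filters and tests and 2.41 to 2.94 with a library left out. With the replicate block it was 2.67. Whether the replicate numbers pair the libraries is undecided. Same-numbered libraries deviated from their group means with correlations of only 0.015, 0.036 and 0.040. Yet 6 of 6 libraries correlated best with their own number. Correlations this small cannot tell weak pairing from none. The value of BTN3A1 ran from -0.04 to 0.25 with a library left out. Counts of calls in lists moved more. Among the cluster neighbours there was 1 call without the filter on low counts (HIST1H1E) and 0 to 1 with a library left out. Among butyrophilin-like and B7 genes there was 1 call with DESeq2, 1 with a minimum of 50 counts and 1 to 2 with a library left out. HHLA2 fell below the filter at 50 counts and without any 1 of the si‐SRSF11 libraries, so it was not tested there. Among genes of γδ T cell recognition there were 3 with DESeq2 and 3 to 5 with a library left out, and among MHC class I genes and regulators 1 to 5 with a library left out. The cause of the other differences was not tested. Scaling by library size alone turned the split of all calls from 2081 higher and 1805 lower to 1585 higher and 2289 lower, with a median shift of -0.033. At 7 to 15 counts per si‐NC library, the depth limits how closely the fold change of BTN1A1 is known.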
